A study of Mus musculus with 51 samples.

Results

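The messenger RNA of newborn mouse gonads without Dmrt1 was compared with that of gonads carrying 1 functional copy of the gene. The comparison takes 6 of the 51 samples of the series, or 6 of its 30 RNA libraries: 3 from Dmrt1-/- gonads and 3 from Dmrt1+/- gonads, chosen by genotype and age alone. Both groups were whole gonads at postnatal day 3 (P3) on a mixed 129Sv and C57Bl/6J background, and the heterozygotes, not wild-type mice, are the controls. The labels do not say whether replicate libraries came from separate animals, so p-values measure the spread between these libraries. Of the 55401 genes in the count table, 15837 passed an expression filter and were tested, with 2 further P3 genotypes (Dmrt1 R111G/+ and R111G/-, 3 libraries each) in the same fit.

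DMRT1 is a transcription factor with a DM domain, a zinc-binding module that contacts DNA in both the major and the minor groove. In the testis it is made in Sertoli cells, the somatic cells that nurse the germ cells and form the blood-testis barrier, and in spermatogonia. Mouse gonads that lack it begin as testes and later take on ovary-like cells, in which Sertoli cells give way to cells that resemble granulosa cells, so a P3 gonad shows the null state early. The mutation is carried in every cell, and a change can therefore arise in Sertoli cells, in germ cells or in cells that respond to either. In whole gonads, fewer cells of a type and less RNA per cell cannot be told apart.

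The 6 libraries held 7035359 to 8643604 counts. Levels are given as CPM, the reads of a gene scaled to a common library total after TMM normalization. The Y-linked gene Ddx3y was found at 158 to 181 CPM in all 6 libraries. The Sertoli genes Amh and Sox9 were at 422 to 1265 and 88.7 to 169 CPM. The oocyte genes Zp1, Oog1 and Oosp1 had at most 1 read in any of the 6 libraries, but other oocyte genes were read. Gdf9 had 21, 14 and 17 reads in Dmrt1+/- gonads and 10, 14 and 17 in Dmrt1-/- gonads. Ooep had 50, 54 and 72 reads in Dmrt1+/- gonads and 70, 100 and 61 in Dmrt1-/- gonads. The labels of these libraries give no sex. Dmrt1+/- replicate 2 stood apart in its make-up: it had the lowest sum over the Sertoli cell list (5016 CPM, against 6837 to 7216 in the other heterozygotes and 6144 to 6518 in the nulls) and the highest over the germ cell and piRNA list (805 CPM, against 304 to 453 and 236 to 532). Counts of called genes without it are given below.

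DNA at the start sites is shown for 1 called gene that holds letters of the DMRT1 motif and for 2 MHC class II genes. The letters ACAATGT (or ACATTGT on the other strand) are the core of the motif that DMRT1 prefers and overlap the letters ACAAT read by SOX proteins. They were looked for in RefSeq promoters of GRCm38.p6 that span 250 bases before to 50 bases after a start. Of the 32 genes called higher in the null, 22 were in this table and 1 (4.55%) held the letters, of the 49 called lower 33 were in it and 1 (3.03%), and of all tested genes 11352 were in it and 221 (1.95%). Only 71.7% of the tested symbols were matched, under the 80% needed, so these shares are void as a comparison. The promoter of Dpf3 (higher in the null), at chr12:83487687-83487986 on the minus strand, holds the core from base 16 after the start, in capitals. It is the only such promoter among the called genes named here.
Dpf3: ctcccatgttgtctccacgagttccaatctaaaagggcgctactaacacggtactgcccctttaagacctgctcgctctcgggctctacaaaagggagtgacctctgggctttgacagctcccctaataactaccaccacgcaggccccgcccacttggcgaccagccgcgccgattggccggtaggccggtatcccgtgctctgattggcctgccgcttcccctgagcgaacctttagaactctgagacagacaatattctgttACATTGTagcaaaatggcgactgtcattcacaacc
The MHC class II genes, 4 of which rose, sit together on chromosome 17 and are known for a shared promoter module that ends in a Y box, whose letters CTGATTGG hold a reversed CCAAT. Those letters, searched as CTGATTGG on both strands, were found in the promoters of H2-Aa (chr17:34287774-34288073, minus strand, from 51 bases before the start) and H2-Eb1 (chr17:34305617-34305916, plus strand, from 62 bases before the start), not in that of H2-DMb1, and in 6.78% of the tested genes in the table. The H2-DMb1 promoter holds GTGATTGG, which differs in the first letter, and the Dpf3 promoter above holds CTGATTGG unmarked. H2-Ab1 was not matched. In the sequences below the Y box is in capitals.
H2-Aa: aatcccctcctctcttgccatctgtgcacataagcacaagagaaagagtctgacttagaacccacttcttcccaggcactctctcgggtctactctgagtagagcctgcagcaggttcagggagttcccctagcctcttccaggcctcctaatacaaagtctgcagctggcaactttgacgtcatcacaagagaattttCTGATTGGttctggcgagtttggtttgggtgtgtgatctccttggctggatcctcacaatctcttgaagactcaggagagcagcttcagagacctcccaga
H2-Eb1: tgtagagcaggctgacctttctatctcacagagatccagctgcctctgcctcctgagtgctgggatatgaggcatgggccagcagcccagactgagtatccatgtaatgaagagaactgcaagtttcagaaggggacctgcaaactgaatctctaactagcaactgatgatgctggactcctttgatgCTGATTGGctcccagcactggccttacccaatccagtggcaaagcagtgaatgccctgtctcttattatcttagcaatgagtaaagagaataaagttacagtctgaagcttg
A match is a run of letters and not a measured binding site.

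Loss of Dmrt1 changed few genes at this age. In Dmrt1-/- gonads 32 genes were higher and 49 lower when genes had to change over 2-fold and pass 0.05 after adjustment (edgeR quasi-likelihood test with Benjamini-Hochberg adjustment), 0.202% and 0.309% of the genes tested. Another 42 genes passed the adjusted p with a smaller change, and 1397 of the 15837 tested genes had an unadjusted p below 0.05 in either direction. List counts below are to be read against these background shares. The median log2 fold change over all tested genes was -0.0049. All 81 called genes had groups without overlap, as had 2098 tested genes (13.2%). Most called genes, 75 of 81, code for proteins. Leaving out 1 library at a time left 12 to 31 genes higher and 24 to 58 lower. The fewest were left without Dmrt1-/- replicate 1, when 12 rose and 24 fell, and without Dmrt1+/- replicate 2 16 rose and 44 fell. In all of 13 other analyses 29 of the 81 genes were called the same way, 9 higher and 20 lower.

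**Figure D1:**
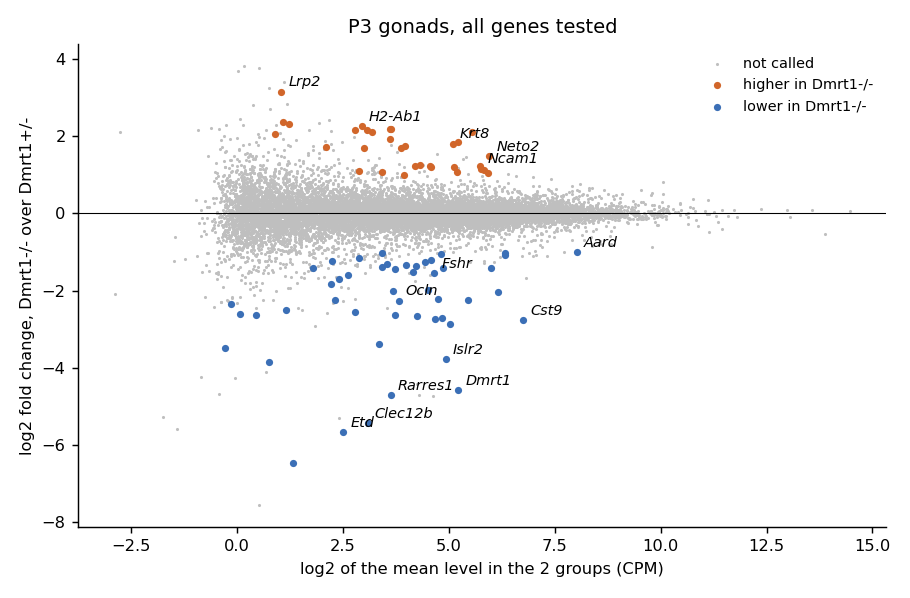
Log2 fold change of Dmrt1-/- over Dmrt1+/- P3 gonads (vertical axis) against the log2 mean level in CPM (horizontal axis), 1 point for each of 15837 genes. The 32 genes called higher (orange) and 49 called lower (blue) stand out from a cloud centred near 0, with the targeted gene Dmrt1 at -4.58.

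Dmrt1 itself, on chromosome 19 from 25505618 to 25604329 of GRCm38, checks the labels. It stood at 55.9, 86.3 and 73.7 CPM in Dmrt1+/- gonads and 3.11, 2.24 and 3.54 CPM in Dmrt1-/- gonads. Every null library was far below every heterozygous one (log2 fold change -4.58 ± 0.24, adjusted p = 4.5e-07; the standard errors, written after ±, are calculated back from the fold change and the test statistic). The counts cover the whole gene, so the 25, 17 and 31 reads left in the nulls do not say which part of it was still transcribed. Of 56 tested genes within 5 Mb on either side, Dmrt1 was the only one called. Its neighbor Kank1 stood at 96.1, 102 and 98.2 CPM in Dmrt1+/- gonads and 96.3, 114 and 114 CPM in Dmrt1-/- gonads. Another gene of the DM family, Dmrta1, went the same way: it was at 10.3, 17.5 and 7.75 CPM in Dmrt1+/- gonads and 1.87, 2.63 and 1.6 CPM in Dmrt1-/- gonads, with no overlap (log2 fold change -2.54 ± 0.40, adjusted p = 0.0084). Dmrt2 and Dmrt3, the adjacent family members, were at means of 1.69 and 5.46 CPM in heterozygotes against 1.81 and 8.57 CPM in nulls, and neither was called (adjusted p of 1.00 and 0.78). When single libraries were dropped, calls were lost in 2 of 6 analyses for Dmrta1.

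Part of the Sertoli cell program was lower, while Sox9, Sox8 and Amh, which define the cell, were not called. At an unadjusted p below 0.05 13 of 35 tested genes of the Sertoli list were lower and 2 higher, and DESeq2 called 11 lower and 0 higher. Of all 15837 tested genes 1397 had such a p in either direction, and the main fit called 0.309% lower and 0.202% higher. Within the list 11 fell in the main fit, 0 rose and 24 were not called, with a median log2 fold change of -0.15. Of these 11, 5 (Etd, Gpr37, Sh3gl2 and Islr2 among them) were put in the list from the study's own P3 gene sheet, so their count is not independent evidence. The other 30 tested members gave 6 lower genes: Aard, Cldn11, Cst9, Fshr, Ocln and Rhox8. When single libraries were left out, 2 to 5 of these 30 genes were called lower, and 7 to 10 of the full list. Sox9, the transcription factor that sets the Sertoli fate, was at 138, 114 and 147 CPM in Dmrt1+/- gonads and 88.7, 117 and 169 CPM in Dmrt1-/- gonads, and the groups overlapped (log2 fold change -0.09 ± 0.22, adjusted p = 0.98). Its relative Sox8 was at 127, 113 and 113 CPM in Dmrt1+/- gonads and 120, 128 and 150 CPM in Dmrt1-/- gonads (log2 fold change 0.17 ± 0.16, adjusted p = 0.91). Amh, the hormone that removes the Müllerian duct, was at 841, 422 and 940 CPM in Dmrt1+/- gonads and 875, 918 and 1265 CPM in Dmrt1-/- gonads, again with overlap (log2 fold change 0.47 ± 0.28, adjusted p = 0.73). Gata4 and Wt1, further Sertoli regulators, had log2 fold changes of 0.28 and 0.29 (adjusted p of 0.56 and 0.84). Calls were lost on dropping single libraries in 2 of 6 analyses for Aard and Cst9, 3 of 6 analyses for Rhox8 and 5 of 6 analyses for Cldn11.

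The lower members cover secreted, membrane and nuclear proteins. Cst9 encodes a cystatin made in fetal Sertoli cells and was the second most abundant of the called Sertoli genes: it was at 139, 252 and 177 CPM in Dmrt1+/- gonads and 18.3, 48.4 and 16.9 CPM in Dmrt1-/- gonads. The nulls were all lower, with replicate 2 well above the other 2 (log2 fold change -2.77 ± 0.47, adjusted p = 0.014). Its neighbor Cst12 was at 189, 218 and 163 CPM in Dmrt1+/- gonads and 154, 192 and 139 CPM in Dmrt1-/- gonads, with overlap (log2 fold change -0.23 ± 0.22, adjusted p = 0.91). Aard, an abundant transcript of the testis soma, was at 277, 417 and 343 CPM in Dmrt1+/- gonads and 150, 184 and 183 CPM in Dmrt1-/- gonads and just passed the fold limit (log2 fold change -1.0 ± 0.17, adjusted p = 0.012). Islr2, a leucine-rich repeat membrane protein known from axon guidance, was at 41, 61.1 and 68.5 CPM in Dmrt1+/- gonads and 2.74, 3.16 and 6.39 CPM in Dmrt1-/- gonads (log2 fold change -3.77 ± 0.32, adjusted p = 5.4e-05). Every null library lay several-fold below every heterozygote. Sh3gl2, the endocytic protein endophilin A1, was at 53.6, 34.2 and 45.5 CPM in Dmrt1+/- gonads and 8.83, 6.58 and 4.68 CPM in Dmrt1-/- gonads (log2 fold change -2.73 ± 0.22, adjusted p = 4.5e-05). Gpr37, an orphan receptor, was at 100, 80.8 and 99.6 CPM in Dmrt1+/- gonads and 30.5, 34.3 and 41.2 CPM in Dmrt1-/- gonads (log2 fold change -1.40 ± 0.15, adjusted p = 0.00065). The groups were tight and separate. Rhox8, an X-linked homeobox gene of Sertoli cells, was at 38.1, 30.5 and 32 CPM in Dmrt1+/- gonads and 10.5, 19.5 and 13.6 CPM in Dmrt1-/- gonads (log2 fold change -1.21 ± 0.20, adjusted p = 0.013). Etd, an X-linked gene of the early testis, was at 10.6, 11.5 and 11.4 CPM in Dmrt1+/- gonads and 0.249, 0 and 0.342 CPM in Dmrt1-/- gonads, which are 83, 84 and 81 reads against 2, 0 and 3 (log2 fold change -5.67 ± 0.63, adjusted p = 0.00067).

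**Figure D2:**
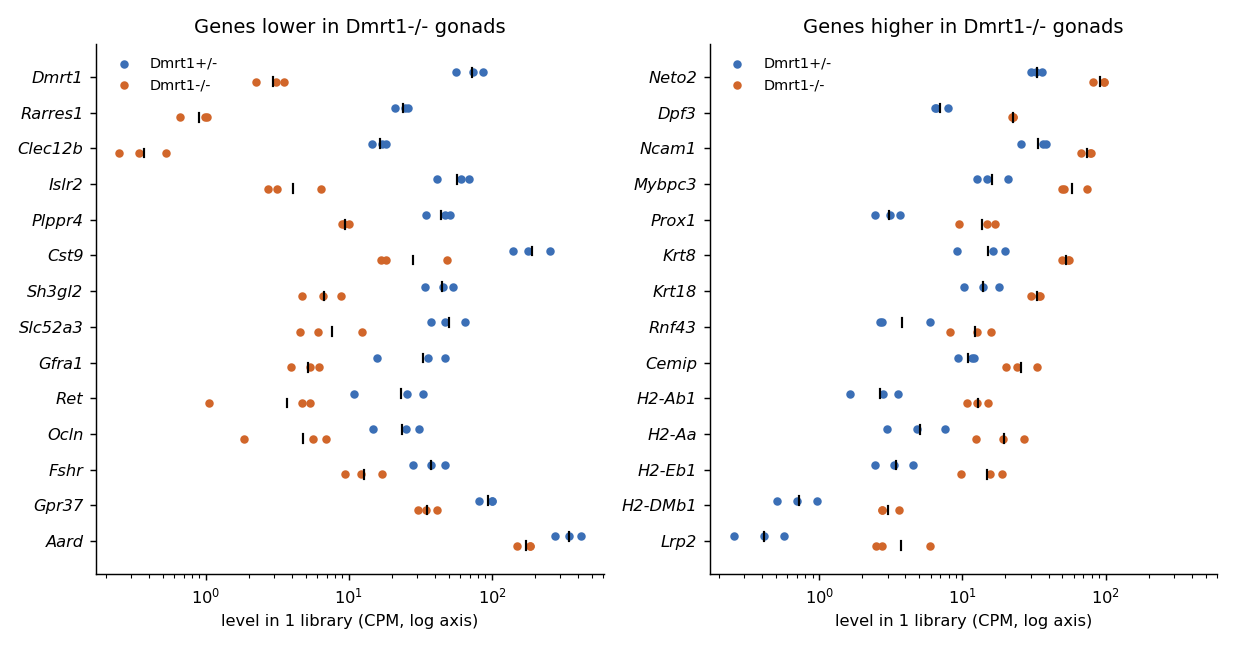
Level in each library (horizontal log axis, CPM) of 14 genes called lower and 14 called higher; blue points are the 3 Dmrt1+/- libraries, orange points the 3 Dmrt1-/- libraries and black bars group means. For every gene shown the groups do not overlap.

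Genes of the blood-testis barrier and of hormone reception were among those that fell. Of 16 tested junction genes, 2 fell and 0 rose (5 lower and 2 higher at an unadjusted p below 0.05, 2 lower and 0 higher with DESeq2), with a median of -0.18. The shares over all tested genes were 0.309% lower and 0.202% higher. Ocln encodes occludin, a tight junction strand protein, and was at 14.8, 24.9 and 30.7 CPM in Dmrt1+/- gonads and 5.6, 1.84 and 6.96 CPM in Dmrt1-/- gonads. Each null was below each heterozygote (log2 fold change -2.27 ± 0.35, adjusted p = 0.0077), but Ocln was not called when only the 6 libraries compared were fitted. Cldn11, the claudin of the Sertoli cell barrier, was at 20.5, 34.2 and 25.8 CPM in Dmrt1+/- gonads and 11.4, 10.1 and 9.59 CPM in Dmrt1-/- gonads (log2 fold change -1.37 ± 0.28, adjusted p = 0.042). Gja1, the gap junction protein connexin, was at 1677, 718 and 1038 CPM in Dmrt1+/- gonads and 616, 710 and 559 CPM in Dmrt1-/- gonads, without overlap but under the fold limit and past no threshold (log2 fold change -0.87 ± 0.24, adjusted p = 0.16). Without Dmrt1+/- replicate 2 Gja1 was called lower (-1.11 on the log2 scale), and without Dmrt1+/- replicate 1 the junction gene Jam2 was called higher (1.01). Of 19 inhibin, activin and FSH signaling genes, 3 fell and 1 rose, with a median of -0.0057 and a sum that was higher in every null (3764 to 5006 against 5118 to 5491 CPM). That separation rests on abundant genes that were not called. Without Gnas (986, 1043 and 990 CPM in Dmrt1+/- and 1112, 1171 and 904 CPM in Dmrt1-/- gonads) the sums overlap. Fshr, the receptor for follicle-stimulating hormone, was at 46.6, 28 and 37.8 CPM in Dmrt1+/- gonads and 12.2, 17 and 9.36 CPM in Dmrt1-/- gonads. It stayed called in all 13 other analyses (log2 fold change -1.55 ± 0.21, adjusted p = 0.0033). Pde4b, a phosphodiesterase that ends the cAMP signal of such receptors, was at 13.1, 20.8 and 27.6 CPM in Dmrt1+/- gonads and 6.47, 4.6 and 4.22 CPM in Dmrt1-/- gonads (log2 fold change -2.00 ± 0.33, adjusted p = 0.012). Fstl4, a follistatin-like protein, was low throughout, at 3.44, 3.56 and 4.37 CPM in Dmrt1+/- gonads and 0.871, 0.658 and 0.457 CPM in Dmrt1-/- gonads (log2 fold change -2.50 ± 0.38, adjusted p = 0.0071). Ltbp1, which binds latent TGF-beta, went the other way with 26.9, 45.8 and 34.8 CPM in Dmrt1+/- gonads and 82.4, 70.1 and 79.9 CPM in Dmrt1-/- gonads (log2 fold change 1.11 ± 0.23, adjusted p = 0.043). The hormone subunits Inha and Inhba were not called, at log2 fold changes of 0.30 and 0.08 (adjusted p of 0.85 and 0.98). Dropping each library in turn lost the call in 3 of 6 analyses for Pde4b and 5 of 6 analyses for Ltbp1.

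A few genes of spermatogonial stem cells were lower, and most were not called. Of 24 tested genes of undifferentiated spermatogonia, 4 fell and 0 rose, with 19 negative estimates and a median of -0.40. At an unadjusted p below 0.05 9 were lower and 0 higher, and DESeq2 called 4 lower and 0 higher. Over all 15837 tested genes 0.309% fell and 0.202% rose in the main fit, and 1397 had such a p in either direction. Gfra1 and Ret encode the 2 chains of the receptor through which Sertoli cell-derived GDNF maintains these stem cells. Gfra1 was at 15.7, 47.1 and 35.9 CPM in Dmrt1+/- gonads and 5.35, 3.95 and 6.16 CPM in Dmrt1-/- gonads (log2 fold change -2.66 ± 0.44, adjusted p = 0.012). Ret was at 10.8, 33.1 and 25.4 CPM in Dmrt1+/- gonads and 5.35, 1.05 and 4.68 CPM in Dmrt1-/- gonads (log2 fold change -2.62 ± 0.54, adjusted p = 0.044). In both, Dmrt1+/- replicate 1 was the lowest heterozygote and yet above every null. Lhx1, a homeobox gene that GDNF induces in these cells, was at 7.26, 5.47 and 12.3 CPM in Dmrt1+/- gonads and 2.24, 0.658 and 2.28 CPM in Dmrt1-/- gonads (log2 fold change -2.24 ± 0.42, adjusted p = 0.024), and Bcl6b, another GDNF-responsive regulator, was at 19.2, 23.1 and 26.2 CPM in Dmrt1+/- gonads and 10.6, 6.71 and 9.7 CPM in Dmrt1-/- gonads (log2 fold change -1.34 ± 0.21, adjusted p = 0.0077). The ligand Gdnf was not called, with a log2 fold change of 0.02 and an adjusted p of 1.00. Zbtb16, a zinc finger factor of the same cells, had means of 28.7 CPM in heterozygotes and 8.43 CPM in nulls and was not called (log2 fold change -1.76, adjusted p = 0.25). Of 10 tested genes of GDNF signaling, 2 fell (Gfra1 and Ret) and 1 rose (Ncam1), with a median of -0.26. With 1 library left out, 1 to 4 genes of the spermatogonia list stayed called. Ret was lost in all but 1 of these, so its call is the least stable of the 4. When single libraries were dropped, calls were lost in 2 of 6 analyses for Gfra1 and 4 of 6 analyses for Lhx1. With only the 6 libraries compared in the fit, Lhx1 and Ret were not called.

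The broader germ cell lists gave no calls in edgeR. Of 23 genes of germ cells and the piRNA pathway, 0 were called in edgeR (1 higher and 0 lower at an unadjusted p below 0.05, 1 higher with DESeq2), and their median was -0.22. Their summed level was 304 to 805 CPM in heterozygotes and 236 to 532 CPM in nulls. The ranges overlap, and the part of germ cell number in the lower Gfra1 and Ret was not tested. The estimates were -0.59 for Dazl, an RNA-binding protein of germ cells, and -0.66 for Ddx4, the germ cell helicase, on the log2 scale (adjusted p of 0.82 and 0.79). Of 9 differentiating spermatogonia genes, 22 meiosis genes, 3 oocyte genes and 19 pluripotency genes, 0 were called (1, 0, 0 and 5 higher and 1, 2, 0 and 0 lower at an unadjusted p below 0.05 in edgeR; DESeq2 called 1, a pluripotency gene). The summed level of the differentiating spermatogonia list was nevertheless lower in every null, at 1020 to 1344 CPM in heterozygotes and 899 to 992 CPM in nulls. So was that of the mitotic cell cycle list, at 2671 to 3289 against 2408 to 2573 CPM, with a median of -0.25 over 19 genes and 0 called (5 lower and 0 higher at an unadjusted p below 0.05, 0 with DESeq2). For scale, 1397 of all 15837 tested genes had an unadjusted p below 0.05 in either direction.

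Large falls outside these groups were in genes of varied roles. Rarres1, a membrane protein that retinoic acid induces, had the smallest adjusted p of all genes and was at 21, 24.8 and 25.9 CPM in Dmrt1+/- gonads and 0.995, 0.658 and 1.03 CPM in Dmrt1-/- gonads (log2 fold change -4.71 ± 0.22, adjusted p = 1.8e-07). Clec12b, a C-type lectin receptor, was at 18.2, 17.1 and 14.5 CPM in Dmrt1+/- gonads and 0.249, 0.526 and 0.342 CPM in Dmrt1-/- gonads (log2 fold change -5.43 ± 0.38, adjusted p = 9.7e-06). The nulls kept 2, 4 and 3 reads of it. Cidea, a lipid droplet protein of fat cells, was at 2.42, 3.56 and 3.52 CPM in Dmrt1+/- gonads and 0.249, 0.132 and 0.228 CPM in Dmrt1-/- gonads (log2 fold change -3.85 ± 0.45, adjusted p = 0.001). Of the 8 genes of the adipocyte list, Cidea and Plin1 passed the filter; Plin1 was at 19.8 to 23.5 CPM in heterozygotes and 17.3 to 25 CPM in nulls (adjusted p = 0.99), and Adipoq, Lep, Cfd and Ucp1 were at or near 0 in both groups. The sum of the list was 23.4 to 27.1 CPM against 17.5 to 25.1 CPM, and its part in the Cidea result was not tested. Slc52a3, a riboflavin transporter, was at 46.9, 37.5 and 65.1 CPM in Dmrt1+/- gonads and 6.1, 12.4 and 4.57 CPM in Dmrt1-/- gonads (log2 fold change -2.71 ± 0.33, adjusted p = 0.0015). Fgf13, an intracellular relative of the FGFs, was at 45.6, 26.5 and 36.4 CPM in Dmrt1+/- gonads and 8.59, 10.3 and 8.68 CPM in Dmrt1-/- gonads (log2 fold change -1.98 ± 0.22, adjusted p = 0.00065). Tagln, the actin-binding protein transgelin of smooth muscle, was at 68.9, 152 and 127 CPM in Dmrt1+/- gonads and 23.8, 32.2 and 28.8 CPM in Dmrt1-/- gonads (log2 fold change -2.03 ± 0.41, adjusted p = 0.038). It was the only one of 13 peritubular myoid genes to be called in edgeR, but 11 of the 13 had negative estimates. At an unadjusted p below 0.05 7 were lower and 0 higher (1397 of all 15837 tested genes, either direction), and DESeq2 called 2 lower. The list had a median of -0.85 and a sum of 987 to 2065 CPM in heterozygotes against 757 to 985 CPM in nulls. Dmrt1+/- replicate 2 gave the highest of those sums, and Tagln was called in 1 of the 6 analyses with a library left out, that without Dmrt1+/- replicate 1.

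Genes known from axons and synapses changed in both directions. Of 20 tested, 6 fell, 3 rose and 11 were not called, with a median of -0.071. Among all tested genes 0.309% fell and 0.202% rose. The list was chosen with earlier results of these data known, and Islr2 was taken from the study's own P3 gene sheet, so these counts are not independent evidence. Beside Islr2, the lower genes were Plppr4, Slc1a6, Flrt1, Snph and Cadm1. Plppr4, a lipid phosphatase-related protein of the synapse, was at 50.5, 34.3 and 47.2 CPM in Dmrt1+/- gonads and 8.96, 9.21 and 10 CPM in Dmrt1-/- gonads (log2 fold change -2.22 ± 0.25, adjusted p = 0.00075). The groups were far apart and tight. Slc1a6, a glutamate transporter, was at 9.55, 6.43 and 11.8 CPM in Dmrt1+/- gonads and 2.86, 3.42 and 2.97 CPM in Dmrt1-/- gonads (log2 fold change -1.58 ± 0.24, adjusted p = 0.0077), and Flrt1, an adhesion protein, at 35.8, 39.3 and 53.1 CPM in Dmrt1+/- gonads and 11.4, 14.2 and 22.3 CPM in Dmrt1-/- gonads (log2 fold change -1.41 ± 0.23, adjusted p = 0.01). Snph and the adhesion molecule Cadm1 fell less (log2 fold changes of -1.23 and -1.05, adjusted p of 0.042 and 0.025). Neto2 and Ncam1 were among the 3 that rose. Neto2, an auxiliary subunit of kainate receptors, was at 32.7, 30.1 and 36.1 CPM in Dmrt1+/- gonads and 81.2, 97.1 and 97.1 CPM in Dmrt1-/- gonads and had the smallest adjusted p of the higher genes (log2 fold change 1.48 ± 0.14, adjusted p = 0.00024). Ncam1, an adhesion molecule that can also bind GDNF, was at 38.1, 25.9 and 36.6 CPM in Dmrt1+/- gonads and 78.9, 77.6 and 67.8 CPM in Dmrt1-/- gonads (log2 fold change 1.16 ± 0.17, adjusted p = 0.0057). Leaving out single libraries left 2 to 5 genes of the list lower and 1 to 4 higher. Dropping each library in turn lost the call in 1 of 6 analyses for Flrt1, Ncam1 and Slc1a6, 4 of 6 analyses for Cadm1 and 6 of 6 analyses for Snph.

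Several genes of MHC class II, whose products present peptides to helper T cells, rose. Of 7 tested, 4 were called higher and 0 lower (7 higher at an unadjusted p below 0.05, and DESeq2 called 5 higher), and all 7 had groups without overlap, with a median log2 fold change of 1.92. Over all tested genes 0.202% were called higher and 0.309% lower, and 13.2% had groups without overlap. H2-Ab1, on chromosome 17 like the others, was at 2.8, 1.64 and 3.52 CPM in Dmrt1+/- gonads and 12.6, 15 and 10.8 CPM in Dmrt1-/- gonads (log2 fold change 2.26 ± 0.32, adjusted p = 0.0045). H2-Aa, its alpha chain partner, was at 7.51, 4.79 and 2.96 CPM in Dmrt1+/- gonads and 26.8, 19.2 and 12.4 CPM in Dmrt1-/- gonads (log2 fold change 1.92 ± 0.32, adjusted p = 0.013). H2-Eb1 was at 3.31, 2.46 and 4.51 CPM in Dmrt1+/- gonads and 18.9, 15.7 and 9.82 CPM in Dmrt1-/- gonads (log2 fold change 2.11 ± 0.36, adjusted p = 0.015). In H2-Aa and H2-Eb1 Dmrt1-/- replicate 3 was the lowest null, still above the highest heterozygote. H2-DMb1, a peptide loading factor, was at 0.509, 0.957 and 0.705 CPM in Dmrt1+/- gonads and 3.61, 2.76 and 2.74 CPM in Dmrt1-/- gonads (log2 fold change 2.05 ± 0.34, adjusted p = 0.012). Ciita, the master regulator of the class, Cd74, the invariant chain, and H2-DMa had log2 fold changes of 1.64, 1.13 and 0.85 and were not called (adjusted p of 0.097, 0.30 and 0.28). With 1 library left out, 1 to 4 of these genes stayed called, and H2-Ab1 was called every time. These genes are read at low levels, and the sum over the list was 17.8 to 22.5 CPM in heterozygotes and 52.2 to 81.5 CPM in nulls. When single libraries were dropped, calls were lost in 3 of 6 analyses for H2-Aa, H2-DMb1 and H2-Eb1, and H2-Aa and H2-DMb1 were not called with only the 6 libraries compared in the fit.

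Marker lists of the immune cells that normally carry these molecules gave no calls. Of 14 tested macrophage genes 0 were called (0 at an unadjusted p below 0.05, 0 with DESeq2), with a median of -0.041 and a sum of 124 to 202 CPM in heterozygotes against 110 to 211 CPM in nulls. Of 6 dendritic and B cell genes 0 were called (1 lower at an unadjusted p below 0.05, 0 with DESeq2), the sum was 114 to 129 against 95.8 to 109 CPM, and Cd209a, Clec9a and Xcr1 were at or near 0. MHC class I and interferon genes gave 0 calls among 12 (1 higher at an unadjusted p below 0.05, 0 with DESeq2), with a median of 0.18. In purified P7 Sertoli cells the macrophage sum was 11.2 to 16.3 CPM in controls and 10.4 to 16.7 CPM in mutants, and all 7 class II genes were called higher there. Other cell lists also differed in the P7 mutants. Of these, 4 of 12 stromal, 3 of 14 endothelial and 5 of 16 Leydig genes were called higher and 0 lower. Of 13 myoid genes 2 were lower and 0 higher, and of 23 germ cell and piRNA genes 6 were lower and 0 higher. The cell source of the class II reads was not tested.

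**Figure D3:**
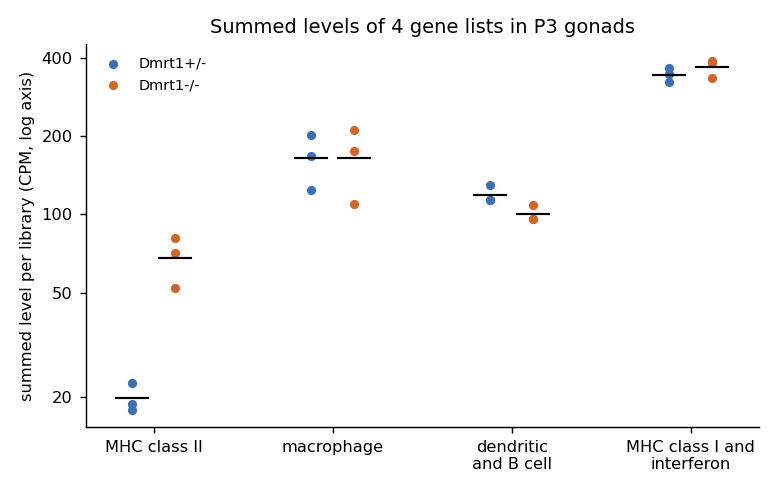
Summed level per library (vertical log axis, CPM) of 4 gene lists in P3 gonads, blue for Dmrt1+/- and orange for Dmrt1-/-, with bars at group means. Of these 4 lists the MHC class II sum alone is higher in every null (17.8 to 22.5 against 52.2 to 81.5 CPM), and the macrophage sums overlap.

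A pair of keratins, a regulator known from endothelia and several membrane proteins were among the other genes that rose. Krt8 and Krt18 encode the keratin pair of simple epithelia. Krt8 was at 19.9, 9.16 and 16.3 CPM in Dmrt1+/- gonads and 50, 54.5 and 55.3 CPM in Dmrt1-/- gonads (log2 fold change 1.81 ± 0.32, adjusted p = 0.017), and Krt18 at 10.2, 14 and 17.9 CPM in Dmrt1+/- gonads and 30.2, 34.9 and 34.1 CPM in Dmrt1-/- gonads (log2 fold change 1.24 ± 0.25, adjusted p = 0.034). Other genes of rete, epididymal and mesothelial epithelium were not called, among them Epcam (-0.54) and Krt19 (-1.54), so 2 of 9 rose and 0 fell (2 higher and 0 lower at an unadjusted p below 0.05; DESeq2 called the same number), with a median of -0.40. The sum of the list was 46.2 to 70.2 CPM in heterozygotes and 96.6 to 108 CPM in nulls, without overlap. That separation rests on Krt8 and Krt18, and without the pair the sums overlap. Leaving out single libraries left 0 or 1 of its genes called. Prox1, a homeodomain factor of lymphatic and other endothelia, was at 3.69, 2.46 and 3.1 CPM in Dmrt1+/- gonads and 14.9, 9.47 and 17 CPM in Dmrt1-/- gonads (log2 fold change 2.16 ± 0.28, adjusted p = 0.0026). The endothelial list gave 0 calls of 14 (1 lower at an unadjusted p below 0.05, 0 with DESeq2). Prox1, Krt8 and Krt18 were also called higher in purified P7 Sertoli cells of mutants, with log2 fold changes of 4.07, 1.65 and 1.41. Prox1 was at 0.699, 2.95 and 0.553 CPM in P7 controls and 19.3, 16.7 and 30.5 CPM in P7 mutants. The cell source of these reads was not tested. Crabp2, a carrier of retinoic acid, was at 1.4, 3.15 and 3.1 CPM in Dmrt1+/- gonads and 9.7, 6.71 and 17.6 CPM in Dmrt1-/- gonads (log2 fold change 2.16 ± 0.43, adjusted p = 0.037), and was the 1 retinoic acid pathway gene of 22 called higher, beside the lower Rarres1. At an unadjusted p below 0.05 4 were higher and 3 lower, DESeq2 called 2 higher and 1 lower, and the median was -0.020. The sum of that list was higher in every null, at 1634 to 1769 CPM in heterozygotes and 2038 to 2395 CPM in nulls. That separation rests on 1 gene that was not called, Aldh1a1. It stood at 1024, 603 and 705 CPM in Dmrt1+/- gonads and 1542, 1403 and 1158 CPM in Dmrt1-/- gonads, and without it the sums overlap. Aldh1a1, a retinaldehyde dehydrogenase, was called higher only without Dmrt1+/- replicate 1 (1.06 on the log2 scale, against 0.81 and an adjusted p of 0.091 with it). Lrp2, the endocytic receptor megalin, had the largest fold change of the called higher genes and few reads (2, 3 and 4 in heterozygotes, 20, 21 and 52 in nulls; log2 fold change 3.16 ± 0.61, adjusted p = 0.029). Slc9a3, a sodium-proton exchanger, and Cnpy1, of the canopy family, were also near 1 CPM or less in heterozygotes (log2 fold changes of 2.33 and 2.38, adjusted p of 0.015 and 0.037). Calls were lost on dropping single libraries in 3 of 6 analyses for Slc9a3, 5 of 6 analyses for Crabp2, Krt18, Krt8 and Lrp2 and 6 of 6 analyses for Cnpy1.

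Granulosa genes were for the most part not called. Of 23 tested, 2 rose and 0 fell (6 higher and 1 lower at an unadjusted p below 0.05; DESeq2 called the same number), with a median of 0.14. The sum of the list was 1628 to 2068 CPM in heterozygotes and 2156 to 2324 CPM in nulls, without overlap. A sum weighs the most abundant genes most, and 21 of the 23 genes were not called. The part of single genes in that separation was not tested. Rnf43, a ubiquitin ligase that dampens WNT receptors, was at 2.67, 2.74 and 5.92 CPM in Dmrt1+/- gonads and 15.8, 8.16 and 12.7 CPM in Dmrt1-/- gonads (log2 fold change 1.70 ± 0.33, adjusted p = 0.03). Cemip, a hyaluronan-degrading protein, was at 9.29, 11.6 and 12.1 CPM in Dmrt1+/- gonads and 24.1, 20.1 and 33.1 CPM in Dmrt1-/- gonads (log2 fold change 1.23 ± 0.19, adjusted p = 0.0077). Foxl2, the forkhead factor that keeps the granulosa fate, was at 1.02, 0.41 and 1.13 CPM in Dmrt1+/- gonads and 1.74, 2.37 and 1.26 CPM in Dmrt1-/- gonads. The groups did not overlap, but these are very low levels and the gene was not called (log2 fold change 1.05 ± 0.43, adjusted p = 0.47). Esr2, the estrogen receptor of granulosa cells, was at 13.6, 5.74 and 9.3 CPM in Dmrt1+/- gonads and 6.47, 8.29 and 6.28 CPM in Dmrt1-/- gonads (log2 fold change -0.45 ± 0.28, adjusted p = 0.76). Nr5a2, an orphan nuclear receptor of the ovary, was at 4.97, 7.93 and 9.86 CPM in Dmrt1+/- gonads and 9.83, 6.71 and 14.8 CPM in Dmrt1-/- gonads (log2 fold change 0.47 ± 0.32, adjusted p = 0.79). Both overlapped between groups. The aromatase gene Cyp19a1 did not pass the filter, with means of 0.047 and 0.20 CPM. Dropping each library in turn lost the call in 4 of 6 analyses for Rnf43.

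Other genes that rose have varied roles. Dpf3, a subunit of BAF chromatin remodelers, was at 6.49, 6.43 and 7.89 CPM in Dmrt1+/- gonads and 22.3, 22.6 and 22.7 CPM in Dmrt1-/- gonads (log2 fold change 1.70 ± 0.17, adjusted p = 0.00037), with almost equal nulls. Mybpc3, known as a myosin-binding protein of heart muscle, was at 14.8, 12.6 and 20.9 CPM in Dmrt1+/- gonads and 51.1, 49.7 and 73.6 CPM in Dmrt1-/- gonads (log2 fold change 1.86 ± 0.25, adjusted p = 0.0028). Unc13d, a vesicle priming factor, was at 9.04, 6.02 and 6.62 CPM in Dmrt1+/- gonads and 23.4, 17.6 and 31.6 CPM in Dmrt1-/- gonads (log2 fold change 1.74 ± 0.26, adjusted p = 0.0068). Myo1a, Mmp15, Slc66a2 and Tes rose between 1.00 and 1.22 on the log2 scale, with adjusted p from 0.0049 to 0.0088. Tes lay on the fold limit and was not called in 4 of the analyses with other scaling, tool or filter. Of the 26 called genes that the naming rule passed over, 11 are predicted genes or pseudogenes, and the rest, 4 higher and 11 lower, had log2 fold changes of 1.05 to 1.71 and -2.62 to -1.02. When single libraries were dropped, calls were lost in 1 of 6 analyses for Mmp15 and 2 of 6 analyses for Tes.

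Interstitial cell genes were not called. Of 16 Leydig cell and steroid synthesis genes 0 were called (1 lower and 0 higher at an unadjusted p below 0.05, 0 with DESeq2), at a median of 0.082. Hsd17b3, an enzyme of testosterone synthesis, was estimated at -0.72 on the log2 scale (adjusted p = 0.35), and its groups did not overlap. Purified P7 control Sertoli cells held it at 183, 114 and 130 CPM and the steroid synthesis gene Hsd3b1 at 5.13, 5.38 and 5.11 CPM. Hsd17b3 can therefore not be read as a gene of interstitial cells alone. Of 12 stromal genes 0 were called (0 at an unadjusted p below 0.05, 0 with DESeq2), at a median of -0.014. Among Notch, hedgehog and FGF signaling genes 1 of 23 fell (Fgf13) and 0 rose (4 lower and 1 higher at an unadjusted p below 0.05, 1 lower and 0 higher with DESeq2). The Y-linked list gave 0 calls of 4 (0 at an unadjusted p below 0.05, 0 with DESeq2).

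**Figure D4:**
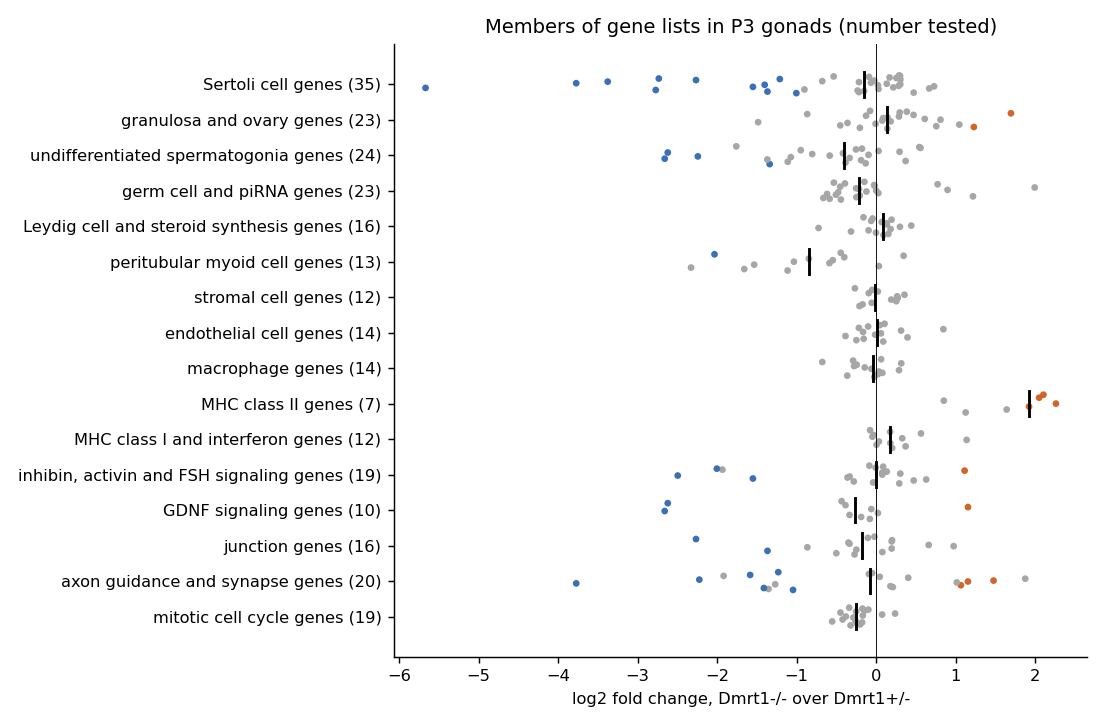
Log2 fold change of each tested member (points) of 16 gene lists in P3 gonads, with the list median (black bar) and the number tested in parentheses; orange and blue points are called higher and lower. The MHC class II list sits to the right (median 1.92), the myoid list to the left (-0.85), and the Sertoli list has 11 members called lower while most stay near 0.

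Whether the P3 genes respond later was read in independent libraries, with all effects taken from 1 fit of the 30 RNA libraries. The 81 genes are those called in the P3 fit; in the 30-library fit 55 of them, 19 higher and 36 lower, were also called at P3, and H2-Aa, H2-Eb1, H2-DMb1 and Krt18 were among those that were not. P7 Sertoli cells were purified from testes in which Dhh-Cre deleted a floxed Dmrt1 in Sertoli cells and lit a tdTomato reporter (Dmrt1 f/f with Dhh-Cre and the CAG-Stopflox-tdTomato reporter, cells pooled from several mice), against cells with 1 floxed allele (f/+), titled +/+ in the labels; 3 libraries each. There 3.32% of 21696 genes were called higher and 2.58% lower. Of the 32 genes higher in P3 nulls, 27 were called higher in P7 mutants and 0 lower, and of the 49 lower ones 40 were called lower and 0 higher. In all 67 of 81 (82.7%) moved the same way past the thresholds and 78 had the same sign. Of the 55 genes called at P3 in both fits, 48 were called the same way at P7. Read from the other side, the 27 genes were 3.75% of the 720 called higher at P7 and the 40 genes 7.16% of the 559 called lower. Their median log2 fold change was 1.70 at P3 and 1.66 at P7 for the higher genes, and -2.03 and -2.55 for the lower ones. The 14 genes without a P7 call include the germ cell receptors Gfra1 (-1.11) and Ret (-1.28) and the low-level Lrp2 and Cnpy1. The P7 mutant cells still held Dmrt1 at 21.2 to 36.8 CPM against 168 to 259 CPM in controls, and genes of germ cells summed to 479 to 877 CPM in controls and 255 to 595 CPM in mutants.

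The difference between the ages was tested for each gene. The effect of the mutation differed between P7 Sertoli cells and P3 gonads for 1.28% of all genes tested and for 11 of the 81 (13.6%). Ocln fell more at P7, from 105, 74.4 and 112 CPM in controls to 3.72, 4.74 and 3.54 CPM in mutants. Its effect was -4.60 at P7 and -2.27 at P3 on the log2 scale (difference -2.33, adjusted p = 0.019). Islr2 behaved alike (-7.40 and -3.78, difference adjusted p = 0.0027). Ncam1 rose more at P7 (3.04 against 1.15, difference adjusted p = 0.00077). Of the 9 lower genes with a difference, 8 fell more in the purified cells and Dmrt1 fell less. Purified cells and whole gonads differ in make-up as well as in age, and the 2 cannot be told apart. For H2-Ab1, at 2.45, 1.56 and 0.553 CPM in P7 controls and 23.1, 13.5 and 16.7 CPM in mutants, the difference was not called (adjusted p = 0.58).

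At P28, Dmrt1-/- and Dmrt1+/- gonads (3 libraries each) differed in far more genes: 19.9% of 21696 were higher and 36.6% lower. The germ cell gene Ddx4 was then at 258 to 393 CPM in heterozygotes and 0.769 to 1.28 CPM in nulls. Dazl was at 469 to 642 and 0.94 to 2.87 CPM. The part of germ cell content in the P28 changes, turns of sign included, was not tested. Of the genes higher at P3, 11 were called higher and 6 lower, and of those lower at P3, 33 were called lower and 4 higher. The 44 genes that moved the same way are 54.3% of the P3 genes, and 0.255% of the genes higher and 0.416% of those lower at P28. The effect differed between P28 and P3 for 41 of the 81 genes (50.6%), against 40.9% of all genes, so this share is near the background. Ocln, Cst9, Etd and Gpr37 were lower at all 3 ages. Fshr turned: it was lower in nulls at P3 and P7 and higher at P28, with 6.24, 10.8 and 12.6 CPM in heterozygotes and 27.4, 27.3 and 35.7 CPM in nulls (log2 fold change 1.61, difference 3.16, adjusted p = 2.1e-08). Bcl6b, Slc1a6 and Snph were also called lower in the P3 fit and higher at P28, although Slc1a6 and Snph were not called at P3 in the 30-library fit and Snph not at P7 (-1.04, adjusted p = 0.11). Cemip, Neto2, Tes, Slc9a3, Cnpy1 and the predicted gene 5330417C22Rik went from higher to lower, of which Tes and Slc9a3 were not called at P3 in the 30-library fit. Of the 55 genes called at P3 in both fits, 33 were called the same way at P28 and 6 the opposite way. Cemip went from a log2 fold change of 1.23 at P3 to -3.28 (28.4, 35.8 and 25.4 CPM in heterozygotes, 4.28, 2.34 and 2.65 in nulls).

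The ovarian regulators Foxl2, Esr2 and Nr5a2, not called at P3, were called in P7 cells and in P28 gonads. The P7 libraries are purified Sertoli cells of a conditional deletion, so age, material and allele cannot be told apart there. Foxl2 was at 0.35, 0 and 0.276 CPM in P7 controls and 17.0, 11.2 and 29.1 CPM in P7 mutants, and at P28 at 0.756, 0.112 and 0.534 CPM in heterozygotes and 129, 170 and 196 CPM in nulls. Its effect was larger than at P3 at both ages (differences of 5.24 and 7.33, adjusted p of 0.00054 and 1.3e-08). Esr2 and Nr5a2 were lower in P7 mutants, with log2 fold changes of -1.28 and -1.73, and were far higher in P28 nulls (6.04 and 5.75). The P28 effects differed from the P3 ones (adjusted p of 2.0e-09 and 1.0e-09). By the same test the P7 effect differed from that at P3 for Nr5a2 (difference -2.20, adjusted p = 0.018). For Esr2 that difference was not called (-0.83, adjusted p = 0.60). Hsd17b3 fell by 7.81 on the log2 scale at P28, from 7.75, 18.6 and 6.14 CPM to 0.116, 0 and 0 CPM.

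**Figure D5:**
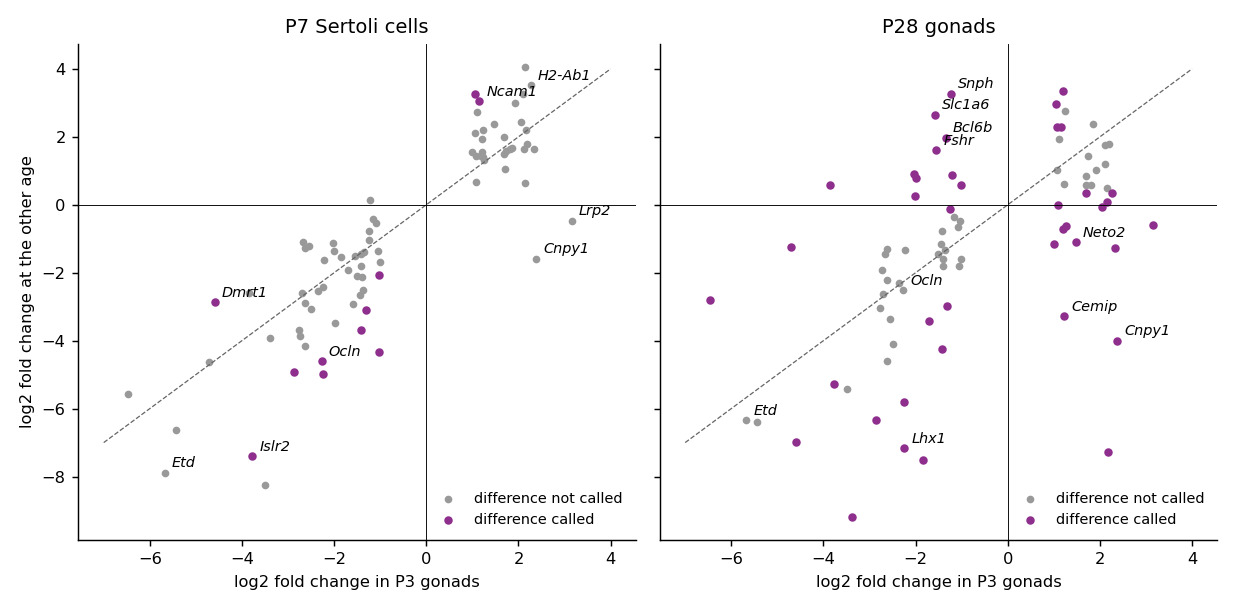
Log2 fold change of the 81 genes called at P3 (horizontal axis) against that in P7 Sertoli cells (left) and P28 gonads (right), 1 point per gene; purple points have a called difference from P3 and the dashed line marks equal effects. At P7 78 of 81 genes keep their sign, while at P28 10 are called in the opposite direction.

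The P3 gonads with the R111G allele, a missense change in the DM domain, were set against the same Dmrt1+/- libraries, so the 3 comparisons share their controls and are given side by side only. For Dmrt1 itself the log2 fold changes in Dmrt1-/-, R111G/- and R111G/+ gonads were -4.58, -0.10 and 0.90. Genes that were lower in R111G/- about as in the null include Islr2 (-3.77, -4.04 and -1.03 in the same order), Ocln (-2.27, -2.33 and 0.74) and Gpr37 (-1.40, -1.46 and 0.07). Rarres1 (-4.71, -1.33 and -0.41) and Clec12b (-5.43, -2.07 and 0.05) were lower in R111G/- by less. Sh3gl2 (-2.73, -0.11 and 0.52), Plppr4 (-2.22, -0.28 and -0.14) and Fgf13 (-1.98, -0.44 and -0.12) were near the control level there. Among the higher genes Prox1 was higher in all 3 (2.16, 2.01 and 1.89), while H2-Ab1 was at 2.26, 0.43 and -0.72. Whether R111G/- differed from the null was not tested.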

How the data were processed

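Stranded messenger RNA libraries (KAPA) were made by the authors, trimmed with Trim Galore 0.6.0 and cutadapt 1.18 and aligned with STAR 2.7.2a to GRCm38 and counted with Rsubread, per the study's methods and the submitters' processing notes. The deposited values are raw counts per gene. Replicates were not pooled in the table. Here 12 P3 libraries of 4 genotypes were fitted together in edgeR 4.0.16 (R 4.3.3, limma 3.58.1) with filterByExpr, TMM factors and the quasi-likelihood test. A call needed a p below 0.05 after Benjamini-Hochberg adjustment and a change over 2-fold. Ages were compared in 1 fit of 30 libraries. DESeq2 1.42.0, other scalings and filters, a replicate block and libraries left out were alternatives. Scripts were tested on simulated data. Positions come from GENCODE M21, matched for 55141 of 55401 genes. Genes were named by a rule (the 12 smallest adjusted p and 8 largest changes per direction, with no overlap between groups and a mean of at least 1 CPM, predicted genes passed over; called members and the 2 most abundant members of each list; and fixed cell type genes). The members and lists were chosen with earlier results of these data known. Dmrt2, Dmrt3, Gata4, Wt1, Zbtb16, Gdnf, Epcam, Krt19, Ciita, Cd74 and Cyp19a1 are outside the rule and were chosen after their values were seen. Chromatin data of the series were not used here. Some genes that the rule names are not reported here.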

Additional observations from a re-analysis of the deposited data

Results flagged for a closer look

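The effect of the Dmrt1 mutation on named genes differed between P3 gonads and another age by the test of the difference itself (edgeR quasi-likelihood test of the interaction over 30 libraries, adjusted p below 0.05 and a difference over 2-fold). Values are differences of log2 fold changes, the other age minus P3. In P7 Sertoli cells the difference was positive for Dmrt1 (1.72), Foxl2 (5.24), Ncam1 (1.89) and negative for Islr2 (-3.62), Nr5a2 (-2.20), Ocln (-2.33). At P28 it was positive for Bcl6b (3.31), Cidea (4.44), Esr2 (6.49), Fgf13 (2.76), Foxl2 (7.33), Fshr (3.16), Mmp15 (2.13), Ncam1 (1.12), Nr5a2 (5.28), Pde4b (2.25), Rarres1 (3.47), Rhox8 (2.08), Slc1a6 (4.24), Snph (4.50), Tagln (2.94). It was negative at P28 for Cemip (-4.50), Cnpy1 (-6.38), Dmrt1 (-2.39), Dpf3 (-1.36), H2-Ab1 (-1.93), H2-DMb1 (-2.10), Hsd17b3 (-7.08), Islr2 (-1.50), Lhx1 (-4.92), Lrp2 (-3.74), Myo1a (-1.92), Neto2 (-2.58), Prox1 (-2.06), Slc9a3 (-3.60), Tes (-2.15). Lhx1 had no reads in the P28 null libraries, so its fitted difference depends on the prior count and is no bound. Purified cells and whole gonads differ in make-up, and P28 nulls and heterozygotes differed in the germ cell genes Ddx4 and Dazl. At P28 40.9% of all genes differed from P3, and the share among the P3 genes was 50.6%.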

How the results depend on the processing

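No called gene named here changed sign in any alternative, and 29 of the 81 were called in all 13 with the fold limit. Against 32 higher and 49 lower genes, DESeq2 gave 54 and 73, DESeq2 size factors in edgeR 31 and 49, library size alone 31 and 46, no filter on low counts 137 and 175, a mean of at least 1 CPM 32 and 47, the 6 compared libraries alone 32 and 42, and adjusted p alone 42 and 81. These kept the calls of 79, 80, 77, 80, 78 and 58 of the 81 genes in that order, adjusted p alone apart. Leaving out single libraries gave 12 to 31 higher and 24 to 58 lower genes and kept 36 to 59 of the 81, fewest without Dmrt1-/- replicate 1. The replicate numbers did not pair the samples (correlations of deviations 0.084, -0.16 and 0.24 for numbers 1, 2 and 3, and not every library correlated best with its own number), and with the replicate block 20 genes were higher and 38 lower. The P7 against P3 difference was larger for 177 and smaller for 100 genes, with no filter for 401 and 304, and with a library left out for 121 to 150 and 72 to 100. The P28 difference was larger for 3869 and smaller for 5013 genes, and for 4508 to 4655 and 4237 to 4664 with a library left out. Signs turned only in genes that were not called, whose log2 fold changes with a library left out ran over these ranges: B2m (-0.033 to 0.51), Cd79b (-0.73 to 0.036), Clu (-0.41 to 0.16), Col3a1 (-0.21 to 0.13), Cyp26b1 (-0.26 to 0.19), Ddx3y (-0.079 to 0.017), Hba-a1 (-0.56 to 0.88), Hbb-bs (-0.45 to 1.24), Inhba (-0.061 to 0.15), Kdm5d (-0.0020 to 0.20), Kit (-0.038 to 0.50), Lyz2 (-0.14 to 0.65), Notch2 (-0.10 to 0.066), Ooep (-0.023 to 0.48), Plin1 (-0.20 to 0.061), Ptch1 (-0.12 to 0.0034), Sdc4 (-0.039 to 0.092), Smc3 (-0.065 to 0.065), Sox9 (-0.37 to 0.11), Tex15 (-0.28 to 0.31). Smc3 was at -0.00029 with no filter and -0.0011 with the stricter filter, and Tex15 at 0.0047 with the replicate block. Genes with a few reads, such as Lrp2, Cidea and Fstl4, rest on counting error as well as on spread between libraries. Simulated 3-fold changes were found in 81 of 100 genes of the P3 comparison and 6-fold changes in 93 of 100, so smaller changes can be missed. The changed genes were drawn from those with a mean over 1 CPM, so these rates do not cover genes at lower levels. The causes of these shifts were not tested.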

Other observations

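Called genes on the X chromosome all went down. Of 622 tested X-linked genes, 10 (1.61%) were called, each of them lower, against 0.309% lower and 0.202% higher among all tested genes. Beside Etd, Fgf13 and Rhox8 they were 4933416E14Rik, 4930550L24Rik, Gm14569, Ccdc160, Plac1, Map7d3 and Capn6. This grouping was chosen after the values were seen and has no test.

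Some called genes lie near each other (starts within 2 Mb, at least 3 in a row; GENCODE M21 positions on GRCm38). On chromosome 17, from 34153072 to 34316674, 4 of 8 tested genes were higher, all MHC class II genes. On chromosome 2, from 148835147 to 152009258, 4 of 30 were lower: the cystatin gene Cst9, Acss1, Snph and the riboflavin transporter gene Slc52a3. On the X chromosome, from 52791200 to 53443576, 3 of 11 were lower: Ccdc160, Plac1 and Etd. On chromosome 9, from 45929619 to 49798925, 3 of 19 were called, Tagln and Cadm1 lower and Ncam1 higher. These runs were also found after the values were seen.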
